A study of Mus musculus with 12 samples.

Results

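Potassium channel genes, 97 of the 33024 gene symbols in the count table, were taken as every symbol that starts with Kcn followed by a letter, apart from symbols ending in os or containing -ps. They comprise 94 protein-coding genes, all but Kcnrg for pore-forming or auxiliary subunits, and 3 long non-coding RNAs (Kcnmb4os1, Kcnmb4os2 and Kcnq1ot1), which like Kcnrg match by their symbol alone. RNA of cortex tissue from 12 C57BL/6 mice was sequenced, with 7 vehicle-treated control mice that drank water and 5 mice given ethanol (EtOH). From an age of 30 days the ethanol mice could choose between a bottle of water and a bottle of 20% (v/v) ethanol for 12 h of the dark phase over 35 days, which models binge drinking in adolescence. This was followed by 14 days of abstinence and behavioural tests before the brain was taken (Arm #2), so that the tissue was sampled after drinking had stopped. The sex of the mice is not given in the labels used here, and no label describes pooling of mice.

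Potassium channels let potassium leave or enter the cell along its gradient, and in neurons they set the resting potential, end the action potential and limit repetitive firing. Voltage-gated families open on depolarization, calcium-activated and sodium-activated families couple firing to ion entry, inward rectifiers and tandem-pore channels act around rest, and auxiliary subunits change the gating or the surface expression of the pores. Different neurons and glia carry different sets of these genes, and several of them have been studied as ethanol-sensitive channels.

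Each library held between 31768076 and 42183029 counts. A floor of 3 counts per library equals 0.0695 to 0.0962 CPM on the TMM scale used for all levels. The cortical excitatory markers were present in both groups, with summed levels of 2388 to 2910 CPM in the control mice and 2350 to 2923 CPM in the ethanol mice. Most of this sum was Slc17a7, with means of 1955 and 1906 CPM. Of the 9 markers, 4 had negative and 5 positive log2 fold changes, from -0.40 for Tbr1 to 0.60 for Fezf2. The libraries also differed in markers of neighbouring tissue. All 13 striatal markers were called lower (1031 to 2458 CPM summed in control mice, 238 to 311 CPM in ethanol mice), 7 of 12 hippocampal markers were called higher (341 to 481 and 565 to 572 CPM), and 4 of 6 tested choroid plexus markers were called higher (8.43 to 22.5 and 12.1 to 999 CPM). Thalamic markers had 2 of 6 called higher, cortical excitatory markers 1 of 9 higher, astrocyte markers 1 of 8 higher, interneuron markers 2 of 8 lower, oligodendrocyte markers 2 of 8 lower and endothelial markers 1 of 7 lower. Summed levels went from 341 to 377 CPM in control mice and from 288 to 317 CPM in ethanol mice for microglial markers, from 219 to 247 and from 229 to 248 CPM for pericyte markers, and from 9.18 to 128 and from 9.74 to 74.1 CPM for blood markers. The part of these differences in the results that follow was not tested. In bulk tissue, fewer cells of a type and less RNA per cell cannot be told apart.

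A total of 83 potassium channel genes passed the filter on low counts and were tested. The 14 that did not pass were Kcna7, Kcna10, Kcne1, Kcne3, Kcnj1, Kcnj15, Kcnk7, Kcnk15, Kcnk16, Kcnk18, Kcnmb3, Kcnmb4os1, Kcnn4 and Kcnv2. A gene was called when its adjusted p was below 0.05 (quasi-likelihood test of edgeR, Benjamini-Hochberg adjustment over all genes) and its log2 fold change exceeded 0.5 in either direction. In all 11 of the 83 (13.3%) were called, beside 8.29% of all tested genes. Of these, 7 genes were called lower in the ethanol mice, 8.43% of the 83 where 4.09% of all 16059 tested genes were called lower. Another 4 were called higher, 4.82% of the 83 beside 4.2% of all tested genes. The genes called lower were Kcna5, Kcnh4, Kcnj2, Kcnj4, Kcns2, Kcnv1 and Kcng4, and the genes called higher were Kcne2, Kcnj13, Kcng2 and Kcnk10.

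Most differences among these genes were smaller than the fold threshold. The median size of the log2 fold change was 0.28 for the 83 genes and 0.15 for all tested genes, and 67 of the 83 stayed under 0.5. Without the fold minimum, 40 of the 83 genes (48.2%) passed the adjusted p, beside 23.7% of all tested genes, 17 of them higher (20.5% beside 12.1%) and 23 lower (27.7% beside 11.6%). Below, rose and fell refer to this looser rule, and called refers to both thresholds. No common direction was seen, since the median log2 fold change was 0.01 (0.00 over all tested genes), with 42 positive and 41 negative values. Summed over all potassium channel genes, the level was 6072, 6667 and 6785 CPM in the lowest, median and highest control mouse, and 6561, 6888, 6288, 6571 and 6730 CPM in ethanol mice 1 to 5, so the groups overlapped. For 18 of the 83 genes (21.7%) the groups did not overlap in any mouse, beside 9.81% of all tested genes. Every ethanol mouse was above every control mouse for 9 of them and below for another 9, beside 4.84% and 4.96% of all tested genes.

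**Figure D1:**
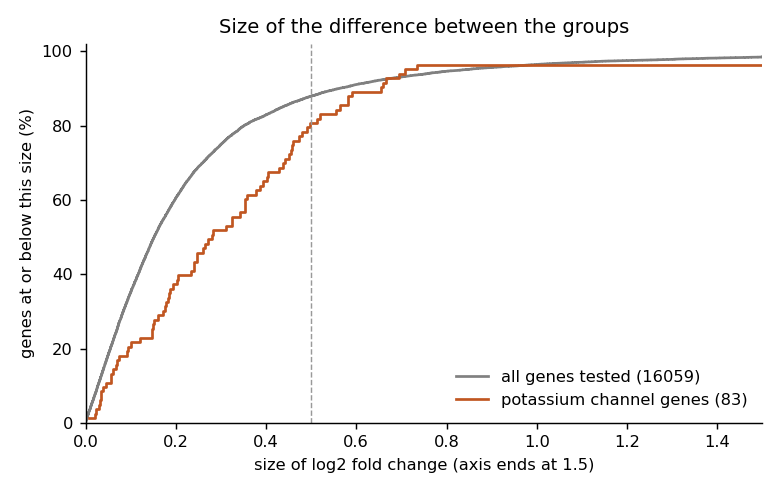
Share of genes (y axis, percent) at or below each size of log2 fold change (x axis) for the 83 tested potassium channel genes and all 16059 tested genes, with the 0.5 threshold dashed. The curve of the potassium channel genes runs below that of all genes up to and beyond 0.5, with medians of 0.28 and 0.15, and Kcne2, Kcna5 and Kcnj13, at 2.75, -2.25 and 1.81, lie beyond the end of the axis.

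**Figure D2:**
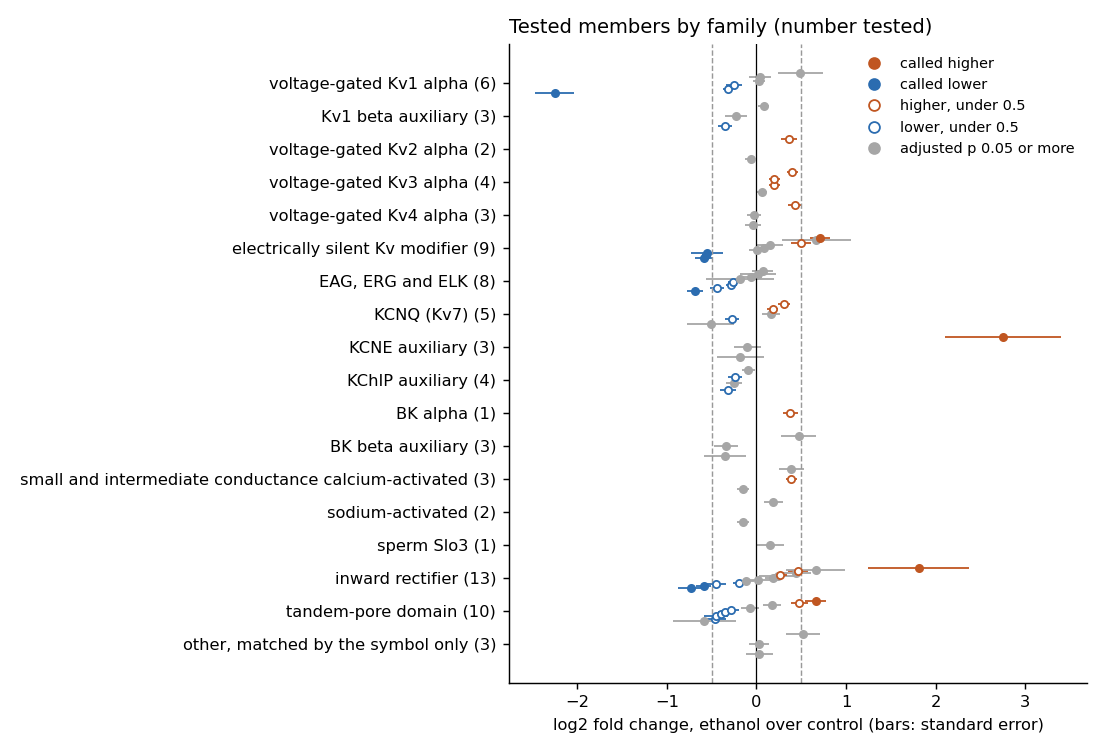
Log2 fold change of ethanol over control (x axis, bars are standard errors) for each tested potassium channel gene, by family (y axis, with the number tested), with filled points for called genes and open points for genes that passed the adjusted p only. The KChIP row lies wholly left of 0, from -0.32 to -0.09, while the inward rectifier and silent modifier rows hold called genes on both sides.

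Among the pore-forming Kv1 genes, Kcna5 carried the widest fall of the 83 tested potassium channel genes. It encodes Kv1.5, a delayed rectifier best known from atrial and smooth muscle cells and from microglia, and lies at chr6:126509514-126512375 of GRCm39 on the minus strand, with no exon shared with another annotated gene. The control mice had 6.67, 14.2 and 19.6 CPM (lowest, median and highest), and ethanol mice 1 to 5 had 4.06, 2.43, 2.98, 2.67 and 1.95 CPM. Every ethanol mouse was below every control mouse, and control mouse 7 was the lowest of its group. The means were 13.6 ± 3.83 CPM (SD, n = 7) and 2.82 ± 0.79 CPM (SD, n = 5), with a log2 ratio of ethanol over control (log2 fold change) of -2.25 (standard error [SE] 0.22, adjusted p = 1.11e-06 by edgeR). The level was 4.77 times higher in the control mice. Kcna5 was called in each of the 12 fits that left out 1 mouse. Control mouse 7 also had the lowest striatal marker sum of the controls (1031 CPM), and control mouse 2, with the highest Kcna5, had the highest sum (2458 CPM).

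The other Kv1 genes differed by much less. Kcna6 (Kv1.6) fell by 0.32 on the log2 scale (adjusted p = 0.000136 by edgeR), with 71.8 to 78.4 CPM in the ethanol mice against 86.4 to 99 CPM in the control mice. Kcna4 (Kv1.4), which inactivates rapidly, fell by 0.25 (adjusted p = 0.0464 by edgeR). The major axonal Kv1 genes Kcna1 and Kcna2 had log2 fold changes of 0.04 and 0.03 with SE of 0.12 and 0.07, and Kcna3 had 0.49 with an SE of 0.25, none past the threshold. Of the Kv1 beta subunits, which bind the cytoplasmic side of Kv1 channels, Kcnab1 fell by 0.35 (adjusted p = 0.00496 by edgeR), whereas Kcnab2, at 52.1 CPM per kb of exon the highest level of any potassium channel gene in the control mice, had a log2 fold change of 0.08 with an SE of 0.06.

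The regulatory sequence of Kcna5 and of Kcnj13, the inward rectifier called higher and described below, is shown because these were the widest fall and the widest rise among the tested pore-forming genes. The 250 bases before the start of transcription come from RefSeq (a table built on GRCm38.p6) and were placed on GRCm39 by exact match, Kcna5 at chr6:126512519-126512768 and Kcnj13 at chr1:87322452-87322701, both on the minus strand and written 5′ to 3′ along the gene. Both strands were searched for the TATA box (TATAAA), the binding motif of Sp1 called the GC box (GGGCGG), the E-box of bHLH factors (CACGTG), the cAMP response element (TGACGTCA) and the letters CCAAT, and capitals mark the matches.
Kcna5: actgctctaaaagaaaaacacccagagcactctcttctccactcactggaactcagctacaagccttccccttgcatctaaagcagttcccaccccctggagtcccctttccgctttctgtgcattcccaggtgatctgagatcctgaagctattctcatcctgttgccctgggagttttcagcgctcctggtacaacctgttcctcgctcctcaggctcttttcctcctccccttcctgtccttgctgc
Kcnj13: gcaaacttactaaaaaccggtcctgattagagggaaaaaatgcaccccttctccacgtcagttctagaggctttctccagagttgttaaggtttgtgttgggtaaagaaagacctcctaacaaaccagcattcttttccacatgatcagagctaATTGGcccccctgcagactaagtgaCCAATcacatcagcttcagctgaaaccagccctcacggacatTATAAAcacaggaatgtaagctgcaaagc
The Kcnj13 window held TATAAA, which 13% of the 27025 promoters in the table and 2 of the 71 potassium channel promoters hold, and CCAAT on both strands, which 34.5% of all promoters and 21 of the 71 hold. None of these letters was found in the Kcna5 window. GGGCGG was held by 35 of the 71 potassium channel promoters and by 33% of all promoters, CACGTG by 4 of the 71 and 6.04%, and TGACGTCA by 0 of the 71 and 1.6%. These are letter matches and not measured binding sites.

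The Kv2, Kv3 and Kv4 genes, which encode the somatodendritic delayed rectifier, the fast repolarizing channels of rapidly firing neurons and the A-type channels, rose where they passed the adjusted p. Of all tested genes, 12.1% rose and 11.6% fell. Of the 4 Kv3 genes, Kcnc4 rose with a log2 fold change of 0.40 (adjusted p = 0.000123 by edgeR). Kcnc1 and Kcnc2 rose with 0.20 each (adjusted p = 0.0242 and 0.0263 by edgeR), and both lost the adjusted p in some fits without 1 mouse. Kcnc4 was 83.5, 96.3 and 106 CPM in the lowest, median and highest control mouse and 114, 131, 124, 131 and 137 CPM in the ethanol mice. The groups did not overlap for this gene. Kcnd3 (Kv4.3) rose by 0.43 (adjusted p = 0.000589 by edgeR), with 117, 91.8, 119, 113 and 93.4 CPM in the ethanol mice and at most 87.2 CPM in a control mouse. Its relatives Kcnd1 and Kcnd2 had log2 fold changes of -0.04 and -0.03, with SE of 0.09 and 0.08. Kcnb2 (Kv2.2) rose by 0.36 (adjusted p = 0.00594 by edgeR). The exons of Kcnd3 overlap those of its antisense gene Kcnd3os by 585 bases, and whether the counting used strand is not given in the sources used here.

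The KChIP subunits, calcium-binding proteins that attach to Kv4 channels, had negative log2 fold changes throughout, from -0.32 to -0.09. Kcnip2 fell by 0.32 and Kcnip1 by 0.24 (adjusted p = 0.0145 and 0.0295 by edgeR). Kcnip3 and Kcnip4 did not pass the threshold, with values of -0.25 and -0.09. Dpp6, a transmembrane partner of Kv4 channels, rose by 0.31 (adjusted p = 0.000172 by edgeR) from 284 ± 11.2 CPM (SD, n = 7) to 351 ± 17.4 CPM (SD, n = 5), with every ethanol mouse above every control mouse.

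The electrically silent subunits form no channel alone and modify Kv2 channels when they assemble with them. Of the 9 tested, 3 were called lower and 1 higher, where 4.09% and 4.2% of all tested genes were. Kcnv1 (Kv8.1, chr15:44820049-44979294, minus strand) had 97.2, 111 and 118 CPM in the lowest, median and highest control mouse and 75.4, 72.5, 72.9, 73.6 and 78.8 CPM in the ethanol mice. All ethanol mice lay below all control mice, within a narrow band. The means were 110 ± 6.71 CPM (SD, n = 7) and 74.6 ± 2.57 CPM (SD, n = 5), with a log2 ratio of -0.56 (SE 0.05), and its edgeR adjusted p of 7.79e-07 was the smallest of the tested potassium channel genes. Kcnv1 exons share 765 bases with a predicted gene on the opposite strand.

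Kcns2 (Kv9.2, chr15:34837501-34844411, plus strand) had 33.3, 43.5 and 48.1 CPM in the control mice (lowest, median, highest) and 27.3, 35.5, 25.3, 25.3 and 25.5 CPM in the ethanol mice. In this gene 4 of the 5 ethanol mice were below all control mice, and ethanol mouse 2 was inside the control range. The fold change on the log2 scale was -0.58 (SE 0.10, adjusted p = 0.000672 by edgeR). Kcng4 (Kv6.4, chr8:120349688-120362762, minus strand) went from 4.69, 8.52 and 11.8 CPM in the control mice to 5.61, 7.16, 4.05, 5.19 and 6.05 CPM in the ethanol mice, and the groups overlapped. Its log2 fold change of -0.55 (SE 0.18, adjusted p = 0.0348 by edgeR) kept the call in 3 of the 12 fits without 1 mouse. It was lost without control mouse 1, 2, 3, 4 or 7 or without ethanol mouse 1, 3, 4 or 5, with an adjusted p of at most 0.0928, and with limma voom (adjusted p = 0.0699). Control mouse 7, with the lowest striatal sum, was the lowest control mouse for Kcns2 and the highest for Kcnv1 and Kcng4.

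Kcng2 (Kv6.2, chr18:80333512-80407993, minus strand) moved the opposite way. The control mice had 6.5, 7.72 and 9.85 CPM (lowest, median, highest) and the ethanol mice 12.9, 11.3, 14.3, 14.3 and 11.5 CPM, so every ethanol mouse was above every control mouse. The fold change on the log2 scale was 0.71 (SE 0.11, adjusted p = 0.000214 by edgeR), and it was called in each fit without 1 mouse. The exons of Kcng2 overlap those of 3 genes on the opposite strand over 2856 of 10955 bases, and reads from them cannot be told apart if strand was not used. Among the remaining silent subunits, Kcns3 rose by 0.50 on the log2 scale (adjusted p = 0.00371 by edgeR), just under the fold threshold, and Kcnf1, Kcng1, Kcng3 and Kcns1 had log2 fold changes between 0.01 and 0.67 that did not pass the test. Kcnf1 was the most abundant silent subunit, at 32.6 CPM per kb of exon in the control mice.

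**Figure D3:**
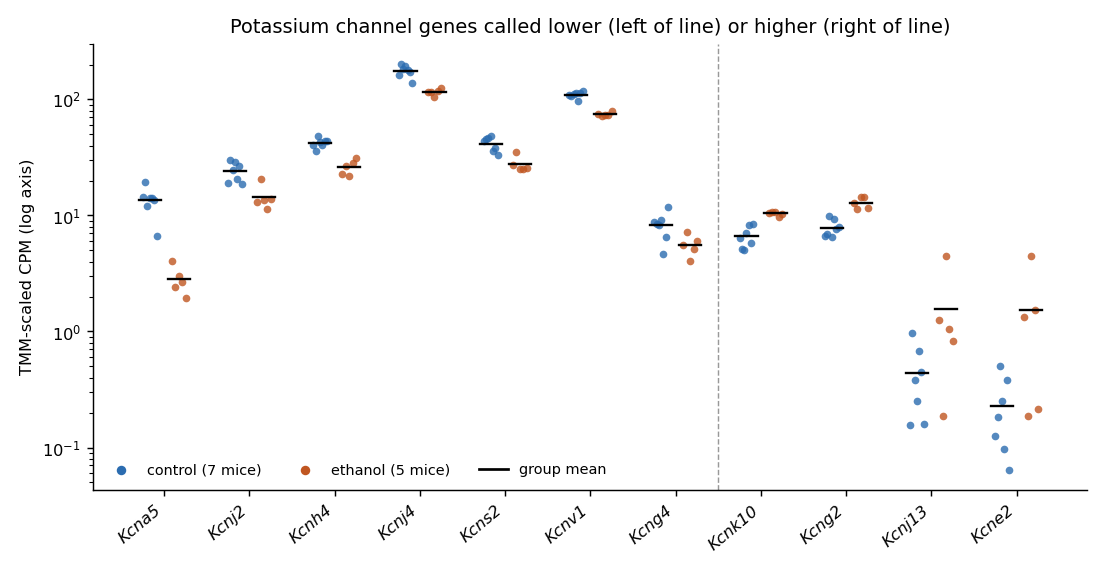
TMM-scaled CPM (y axis, log scale) of the 11 called potassium channel genes in each of the 7 control and 5 ethanol mice, with bars at the group means and a dashed line between genes called lower and higher. The groups are separate for Kcna5, Kcnh4, Kcnj4, Kcnv1, Kcnk10 and Kcng2, and they overlap for Kcnj2, Kcns2, Kcng4, Kcnj13 and Kcne2.

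Of the 8 genes of the EAG, ERG and ELK family, voltage-gated channels with a large cytoplasmic domain, 4 fell and none of the other 4 passed the test, with log2 fold changes from -0.18 to 0.07. Of all tested genes, 11.6% fell. Kcnh4 (an ELK channel, chr11:100631202-100650837, minus strand) was called lower. The control mice had 36.3, 43.1 and 48.1 CPM (lowest, median, highest) and the ethanol mice had 22.8, 26.8, 21.9, 28.6 and 31 CPM, with no overlap. The means were 42.4 ± 3.7 CPM (SD, n = 7) and 26.2 ± 3.84 CPM (SD, n = 5), with a log2 ratio of -0.69 (SE 0.09, adjusted p = 2.1e-05 by edgeR) that stayed called in each fit without 1 mouse. The lowest control mouse for Kcnh4 was mouse 2, which had the highest striatal sum (2458 CPM). Kcnh1 (EAG1) fell by 0.44, Kcnh2 (ERG1, the channel of the cardiac rapid delayed rectifier) by 0.28 and Kcnh3 (ELK2) by 0.26, with edgeR adjusted p of 0.000954, 0.00153 and 0.007. In these 3 genes too, every ethanol mouse was below every control mouse, as for 4.96% of all tested genes. For Kcnh1, for example, the ethanol mice had 83.4, 99.6, 66.5, 87.8 and 90.8 CPM, while the lowest control mouse had 101 CPM. Kcnh3 shares 915 exon bases with 3 other genes, and Kcnh1, Kcnh2 and Kcnh4 share none.

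The KCNQ genes other than Kcnq1 encode subunits of the M current, a slow current that is closed by muscarinic receptors and restrains repeated firing. Kcnq3, a subunit of this current in cortical neurons, rose with a log2 fold change of 0.31 (adjusted p = 0.00445 by edgeR). It had 177, 227 and 257 CPM in the control mice (lowest, median, highest) and 278, 288, 262, 275 and 277 CPM in the ethanol mice. Every ethanol mouse was above every control mouse. Kcnq5, another subunit of the current, went the other way and fell by 0.27 (adjusted p = 0.0153 by edgeR), while Kcnq1, better known from heart and epithelia, had a log2 fold change of -0.51 with an SE of 0.26 and did not pass the test.

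Of the calcium-activated channels, the BK pore Kcnma1, a well-studied target of ethanol, rose from 305 ± 39.3 CPM (SD, n = 7) to 396 ± 19.6 CPM (SD, n = 5), with a log2 ratio of 0.38 (SE 0.08, adjusted p = 0.0019 by edgeR). The ethanol mice had 418, 399, 411, 372 and 381 CPM, and the lowest, median and highest control mouse had 247, 303 and 372 CPM, so the groups met at 372 CPM, with the ethanol mouse higher before rounding. Its beta subunits Kcnmb1, Kcnmb2 and Kcnmb4 had log2 fold changes of -0.35, 0.47 and -0.34 that did not pass the test. The SK channel gene Kcnn2, whose product carries part of the after-hyperpolarization, rose by 0.39 (adjusted p = 6.38e-05 by edgeR), with 38.7, 38.4, 36.5, 34.2 and 37 CPM in the ethanol mice and 26.2, 27.7 and 30 CPM in the control mice (lowest, median, highest). Every ethanol mouse was above every control mouse. Kcnn3 had the same log2 fold change of 0.39 with a wider SE of 0.14 and narrowly missed the threshold (adjusted p = 0.0503 by edgeR), and Kcnn1 had -0.15. The sodium-activated Kcnt1 and Kcnt2 had log2 fold changes of -0.15 and 0.19, and the sperm channel gene Kcnu1 had 0.15, none past the threshold.

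Of the 13 tested inward rectifiers, 4 fell and 3 rose, beside 11.6% and 12.1% of all tested genes. The Kir2 channels, which hold the resting potential of neurons such as striatal spiny neurons at negative values, accounted for 3 of the falls. Kcnj4 (Kir2.3, chr15:79367321-79390032, minus strand) was the second most abundant potassium channel gene of the control mice per kb of exon, at 46.8 CPM per kb. The control mice had 139, 179 and 201 CPM (lowest, median, highest) and the ethanol mice had 116, 117, 106, 119 and 125 CPM, and the groups were separate. The means were 176 ± 20.4 CPM (SD, n = 7) and 117 ± 6.8 CPM (SD, n = 5), with a log2 ratio of -0.59 (SE 0.08, adjusted p = 2.63e-05 by edgeR).

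Kcnj2 (Kir2.1, chr11:110956981-110967665, plus strand) had 18.8, 24.6 and 30 CPM in the control mice and 13, 20.7, 13.5, 11.3 and 13.9 CPM in the ethanol mice. Ethanol mouse 2 lay inside the control range and the other 4 were below it. The fold change on the log2 scale was -0.73 (SE 0.15, adjusted p = 0.00164 by edgeR). Kcnj12 (Kir2.2) fell by 0.45 (adjusted p = 0.00604 by edgeR), just short of the fold threshold, and Kcnj14 (Kir2.4) had 0.24 with an SE of 0.21 and did not pass the test. In Kcnj2, Kcnj4 and Kcnj12 control mouse 7, with the lowest striatal sum, was the lowest control mouse. For Kcnj2 and Kcnj4 control mouse 2, with the highest striatal sum, was the highest. Other mice departed from this order. Control mouse 1, at the median striatal sum of 1897 CPM, had nearly as little Kcnj2 (18.9 CPM). Kcnj12 was highest in control mouse 5 (16.1 CPM), whose striatal sum of 1508 CPM lay below the control median. Ethanol mouse 2, with the highest Kcnj2 of the ethanol mice, had their lowest striatal sum (238 CPM). Kcnj2 and Kcnj4 were called in each fit without 1 mouse.

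The G protein-gated inward rectifiers (GIRK), opened by inhibitory receptors and by ethanol itself, had positive log2 fold changes throughout. Kcnj9 (GIRK3) rose by 0.26 (adjusted p = 0.0247 by edgeR), and Kcnj3 (GIRK1), Kcnj5 (GIRK4) and Kcnj6 (GIRK2) had 0.18, 0.66 and 0.44, with SE of 0.08, 0.33 and 0.17 and no pass of the test. The glial genes diverged. Kcnj10 (Kir4.1), the potassium buffering channel of astrocytes and oligodendrocytes, fell by 0.19 (adjusted p = 0.0455 by edgeR) and Kcnj16 (Kir5.1), which assembles with it, rose by 0.46 (adjusted p = 0.0068 by edgeR). Kcnj10 was highest in ethanol mouse 2 (197 CPM) and control mouse 7 (218 CPM) of their groups, the same 2 mice in which the summed oligodendrocyte markers were highest, at 5201 and 5807 CPM. Control mouse 5, with the lowest oligodendrocyte sum of the controls (4368 CPM), had the next highest control value of Kcnj10 (196 CPM). Astrocyte markers summed to 1053 to 1171 CPM in the control mice and 1265 to 1389 CPM in the ethanol mice, with ethanol mouse 2 lowest of its group. The pore genes of ATP-sensitive channels, Kcnj8 and Kcnj11, had log2 fold changes of 0.02 and -0.12 with no pass of the test, but Abcc8, the sulphonylurea receptor that surrounds such pores, was called higher, from 40.8 ± 7.01 CPM (SD, n = 7) to 60.6 ± 9.79 CPM (SD, n = 5), or 0.57 on the log2 scale (adjusted p = 0.00203 by edgeR).

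Kcnj13 and Kcne2, the called genes with the lowest levels, were highest in the ethanol mouse with the most RNA of choroid plexus markers. Kcnj13 encodes Kir7.1, a channel of epithelia such as the choroid plexus, and lies at chr1:87309135-87322456 on the minus strand. Kcne2 encodes a small auxiliary subunit known from the heart and from the choroid plexus, and lies at chr16:92089219-92095027 on the plus strand. Kcnj13 had 0.157, 0.379 and 0.98 CPM in the control mice (lowest, median, highest) and 1.25, 0.187, 4.5, 1.06 and 0.821 CPM in the ethanol mice. Kcne2 had 0.0641 (under the floor of 3 counts), 0.184 and 0.505 CPM in the control mice and 1.34, 0.187, 4.44, 1.52 and 0.213 CPM in the ethanol mice. In both genes ethanol mice 1, 3 and 4 were above all control mice, and ethanol mice 2 and 5 were inside the control range. The choroid plexus markers summed to 123, 22.9, 999, 281 and 12.1 CPM in ethanol mice 1 to 5 and to at most 22.5 CPM in a control mouse.

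The log2 fold changes were 1.81 for Kcnj13 (SE 0.56, adjusted p = 0.0262 by edgeR) and 2.75 for Kcne2 (SE 0.65, adjusted p = 0.00553 by edgeR), on 104 and 52 counts in all control mice together and 273 and 270 in all ethanol mice. Without ethanol mouse 3, the Kcnj13 value was 0.92 (adjusted p = 0.194 by edgeR) and the Kcne2 value 1.85 (adjusted p = 0.0332 by edgeR). The Kcnj13 call was also lost without control mouse 1 or 4 (adjusted p = 0.052 and 0.0531 by edgeR), and Kcne2 failed the count filter without control mouse 3 or 6. With limma voom neither gene was called. Exons of Kcnj13 share 669 bases with Gigyf2 on the opposite strand, and those of Kcne2 overlap no other gene. The other tested KCNE genes, Kcne1l (now named Kcne5) and Kcne4, had log2 fold changes of -0.10 and -0.18 with no pass of the test.

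**Figure D4:**
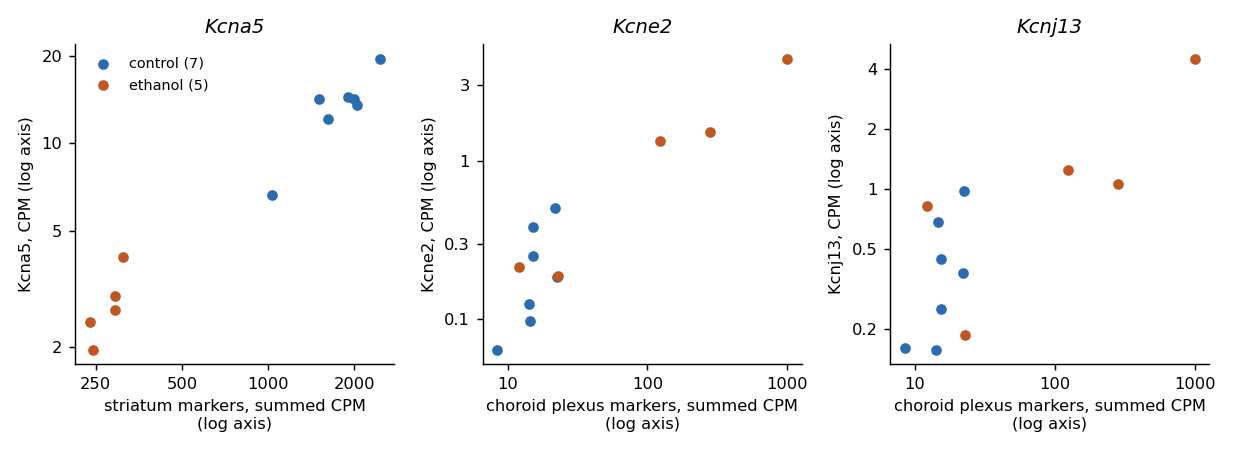
Level of Kcna5 against the summed striatal markers, and of Kcne2 and Kcnj13 against the summed choroid plexus markers, in each of the 12 mice (both axes in CPM, log scale). Control mouse 7 is the control nearest the ethanol mice in the Kcna5 panel, at 6.67 CPM and 1031 CPM, and ethanol mouse 3 stands far right in the other panels, at 999 CPM of choroid plexus markers.

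The tandem-pore channels carry the leak current at rest. Of the 10 tested, 5 fell and 2 rose, beside 11.6% and 12.1% of all tested genes. Of these 7, only Kcnk10 was called, beside 4.2% of all tested genes called higher. Kcnk10 (TREK-2, a channel opened by stretch, heat and lipids, chr12:98395696-98544569, minus strand) had 5.08, 6.42 and 8.5 CPM in the control mice (lowest, median, highest) and 10.6, 10.7, 10.8, 9.74 and 10.3 CPM in the ethanol mice, which all lay above every control mouse. The fold change on the log2 scale was 0.66 (SE 0.12, adjusted p = 0.000971 by edgeR), and it was called in each fit without 1 mouse. Its close relative Kcnk2 (TREK-1) fell by 0.35 (adjusted p = 0.00415 by edgeR). The acid-sensitive TASK genes were likewise divided. Kcnk9 (TASK-3) rose by 0.48 (adjusted p = 0.00101 by edgeR), with 183, 177, 183, 195 and 190 CPM in the ethanol mice and 97.7, 127 and 159 CPM in the control mice, and Kcnk3 (TASK-1) fell by 0.28 (adjusted p = 0.0132 by edgeR). Kcnk1 (TWIK-1), among the most abundant per kb of exon at 36.9 CPM per kb in the control mice, fell by 0.40 (adjusted p = 0.000241 by edgeR), with 67.1 to 74.6 CPM in the ethanol mice and 77.4 to 101 CPM in the control mice. Kcnk6 (TWIK-2) and Kcnk13 (THIK-1, the leak channel of microglia) fell by 0.46 and 0.45 (adjusted p = 0.0119 and 0.0174 by edgeR), while Kcnk4, Kcnk5 and Kcnk12 had log2 fold changes of -0.07, -0.58 and 0.17 with no pass of the test.

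Per kb of exon, the 10 highest potassium channel genes of the control mice included Kcnab2, Kcnj4, Kcnip3, Kcnip2, Kcnk1, Kcnj10, Kcnf1 and Kcnj3, from 52.1 down to 28.2 CPM per kb. Of these, Kcnj4 was called, Kcnip2, Kcnk1 and Kcnj10 fell, and Kcnab2, Kcnip3, Kcnf1 and Kcnj3 did not pass the test. Of the 21 partner genes that bind or anchor potassium channels, 20 were tested. Abcc8 was called higher and Lrrc38, an auxiliary subunit of BK channels, was called lower (log2 fold change -0.63, adjusted p = 0.033 by edgeR), from a mean of 2.79 to 1.79 CPM, though it lost the call without control mouse 1, 3 or 7 or ethanol mouse 3 or 4. Of all tested genes, 4.2% were called higher and 4.09% lower. At the adjusted p alone, 2 partners rose and 5 fell, beside 12.1% and 11.6% of all tested genes. Kcnq1ot1 and Kcnmb4os2, the tested long non-coding RNAs, had log2 fold changes of 0.03 each, and Kcnrg, a regulator of Kv assembly, had 0.52 with an SE of 0.19, none past the threshold.

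Of the 40 potassium channel genes that passed the adjusted p, 30 passed it in every fit without 1 mouse in which they were tested. The other 10 lost it in at least 1 such fit. Besides Kcng4 and Kcnj13 these included Kcna4 (lost without control mouse 1, 2, 4, 5 or 6 or ethanol mouse 1, 3, 4 or 5), Kcnj10 (control mouse 1, 3, 6 or 7 or ethanol mouse 1, 3, 4 or 5), Kcnip1 (control mouse 2 or 3 or ethanol mouse 1, 3 or 4) and Kcnc2 (control mouse 2 or ethanol mouse 2, 3 or 5). Kcnc1 lost it without control mouse 4 or ethanol mouse 4 or 5, Kcnj9 without control mouse 4 or ethanol mouse 1 or 5, and Kcnk13 without ethanol mouse 3. The largest adjusted p among Kcna4, Kcnj10, Kcnip1, Kcnc1, Kcnc2, Kcnj9 and Kcnk13 was 0.122, for Kcna4 without ethanol mouse 4.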

How the data were processed

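Total RNA of the cortex of 12 mice was sequenced. The authors checked reads with FastQC 0.11.9, aligned them to GRCm39 with STAR and Gencode Release 28, counted them with featureCounts, and deposited 1 table of expected counts per gene symbol without normalization. Strand and multi-mapping settings are not given in the sources used here. For 61 symbols the deposited values were not whole, and no potassium channel gene was among them. Columns were matched to mice by name (0 unmatched), and values were rounded to whole numbers.

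Genes were filtered with filterByExpr (16059 kept), scaled with TMM (factors 0.982 to 1.02) and tested with the quasi-likelihood method of edgeR, p-values being adjusted over all genes after Benjamini and Hochberg (R 4.3.3, edgeR 4.0.16, limma 3.58.1). Calls required an adjusted p below 0.05 and more than 0.5 log2 units in either direction. Standard errors derive from the F statistic. CPM per kb used merged exon lengths of Gencode release M39 (GRCm39, a newer annotation than the authors'), in which 50 of the 97 genes share exon bases with another gene and are uncertain to that extent. The floor covers counting error only, whereas SD and SE include the spread between mice. The labels name separate mice.

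The rule for named genes took every called gene, other members of families that hold one (a range and up to 3 values), the 10 highest per kb and the called partners. Genes that passed the adjusted p alone, and the remaining genes given with values, were named after their values were seen. A few potassium channel genes enter the counts and plots without values of their own being reported here. The genes and all lists were chosen with earlier results of these data known. Other tools (DESeq2 1.42.0 and limma voom), other scaling (upper quartile or relative log expression factors), other count filters and fold minimums, the replicate number as a block, and leaving out each mouse were tried. The edgeR fit was tested on simulated data with 15916 genes, 200 of them changed by a log2 fold change of 1, of which it recovered 180 with 5 false calls. All called genes but Kcna5, Kcne2 and Kcnj13 differed by less than this, and recovery of smaller changes was not tested. Differences in tissue markers between the libraries were not simulated.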

Additional observations from a re-analysis of the deposited data

Results flagged for a closer look

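Within a group, a single mouse lay far from the others in 5 of the 66 sets of values examined (Dixon's test at 95%), where chance gives about 3.3, or about 1 in 20. In the ethanol group, mouse 3 had 4.5 CPM of Kcnj13, with the next mouse at 1.25 CPM. Ethanol mouse 2 had the highest value of 3 genes, with 20.7 CPM of Kcnj2 (next mouse 13.9 CPM), 35.5 CPM of Kcns2 (next 27.3 CPM) and 197 CPM of Kcnj10 (next 164 CPM). In the control group, mouse 7 had 218 CPM of Kcnj10 (next 196 CPM).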

How the results depend on the processing

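The 4 potassium channel genes called higher became 2 with limma voom and 2 with a fold minimum of 1, and 17 without a fold minimum. They numbered 3 to 8 with each mouse left out, where the count was 7 without control mouse 5 and 8 without control mouse 7. Over all genes, 1501 were called in either direction without control mouse 5 and 1349 without control mouse 7, beside 1331 in the main fit. The 7 called lower became 6 with limma voom (Kcng4 lost), 8 with at least 1 count in any mouse (Kcnk15, with 16 counts in all ethanol mice, added), 23 without a fold minimum and 1 with a minimum of 1, and 6 to 10 with each mouse left out. DESeq2 called the same 4 and 7 genes. The partner called higher became 2 without a fold minimum and 0 with a minimum of 1. The partner called lower became 5 without and 0 with a minimum of 1, and 0 to 1 with each mouse left out (0 without control mouse 1, 3 or 7 or ethanol mouse 3 or 4). Under the adjusted p alone, 14 to 22 potassium channel genes were higher and 18 to 24 lower with each mouse left out. In these fits 19.4% to 29.3% of all tested genes passed it, beside 23.7% in the main fit, and the highest share was without control mouse 5. None of the 40 changed sign under any alternative run. Apart from fold minimums and filters, the causes of these changes were not tested.

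Over all 83 tested potassium channel genes, 11 had log2 fold changes on both sides of 0 with each mouse left out, and 0 of these had passed the adjusted p in edgeR. Among them were Kcna1 (-0.01 to 0.12 with each mouse left out), Kcna2 (-0.02 to 0.07) and Kcnf1 (-0.04 to 0.08, and -0.00 with limma voom). With at least 10 counts in every mouse Kcne2 and Kcnj13 were not tested. The alternatives for counts at the adjusted p alone were chosen after seeing the data.

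Replicate numbers do not pair the mice, since deviations of same-numbered mice correlated between -0.108 and 0.018 and 0 of the 5 pairs exceeded 0.1. With the replicate block, 7 potassium channel genes were called higher and 6 lower, 0 partners were called lower, and Kcng4 and Kcnj13 were not called. Levels near the floor, as for Kcne2 with 2 to 16 counts per control mouse, limit what could be detected.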
